A study of Drosophila melanogaster with 2 samples.

Results

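The Brahma complex genes described here are 7 of the 13834 protein-coding genes counted, and were picked by name as subunits of the complex, with no threshold on a measured value. They comprise 4 genes of the core (brm, mor, Snr1 and Bap60), 1 gene of the BAP form (osa) and 2 genes of the PBAP form (Bap170 and polybromo). All 7 symbols were found in the annotation.

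Brahma is the fly member of the SWI/SNF family, in which an ATPase burns ATP to slide or evict nucleosomes and so opens promoters and enhancers to transcription. A common core joins signature subunits to make either BAP, which carries Osa, or PBAP, which carries Bap170 and Polybromo. Several of these genes came out of genetic screens as members of the trithorax group, which keeps developmental genes active.

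Occupancy of MESR4, which carries PHD and zinc fingers and was named in a screen for modifiers of Ras signalling, was mapped by chromatin immunoprecipitation and sequencing (ChIP-seq) in whole fly embryos. The flies were of a transgenic line (MESR4-GFP) that stably expresses MESR4 with green fluorescent protein at the C terminus, and embryos of both sexes were pooled over 0 to 24 h of development. There was 1 group, with 2 biological replicates numbered 1 and 3, so no treatment or genotype was compared and tissues were mixed. Each sample's description speaks of an input control, whereas its antibody label names MESR4 and the peaks of both replicates were called against a control alignment that is neither of them, and both were therefore taken as immunoprecipitates. The sources used here do not give the read depth or the antibody, nor whether untagged MESR4 was also present.

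Each replicate list and the list called on both replicates together held 30000 summits, the positions of highest enrichment within a region. A thresholded list held the 6415 summits with the highest signal of the last, kept by the authors after a comparison of ranks between replicates. Signal is the authors' value of enrichment on a scale set for each list, so values of different lists were set side by side only as ranks, where 1 is the strongest summit. A promoter peak was a thresholded summit within 500 bp of any annotated transcription start site (TSS) of a gene. With 1 group and 7 genes no test was made, and the differences below are descriptions.

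The DNA before the start sites is shown for 4 of the genes because the brm summit and the promoter elements of mor, osa and polybromo described below lie there. Sequences are from the release 6 genome (dm6), read 5' to 3' on the gene's own strand and ending at the base before the gene's outermost TSS. The brm stretch is the whole interval up to the first base of the neighbouring gene Arl1 (chr3L:15982870-15983134, minus strand), with the 21 bases centred on the thresholded summit in capitals. The mor (chr3R:15972914-15973063), osa (chr3R:17718351-17718500) and polybromo (chr3R:24805260-24805444) stretches are also on the minus strand, with TATCGATA and TATCGA in capitals. TATCGATA is the DNA replication-related element (DRE), a promoter element of many growth and replication genes bound by the factor Dref, and TATCGA is its shorter part.
brm: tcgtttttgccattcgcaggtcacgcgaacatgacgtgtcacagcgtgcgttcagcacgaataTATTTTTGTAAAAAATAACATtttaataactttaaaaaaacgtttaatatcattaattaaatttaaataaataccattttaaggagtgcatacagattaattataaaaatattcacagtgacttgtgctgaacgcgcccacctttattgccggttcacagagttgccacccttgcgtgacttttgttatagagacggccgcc
mor: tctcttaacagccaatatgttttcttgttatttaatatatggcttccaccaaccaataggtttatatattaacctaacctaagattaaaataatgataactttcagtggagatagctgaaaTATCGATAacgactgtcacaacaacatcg
osa: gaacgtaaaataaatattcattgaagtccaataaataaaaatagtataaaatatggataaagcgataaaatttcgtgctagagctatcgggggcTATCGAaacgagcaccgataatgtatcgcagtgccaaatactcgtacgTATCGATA
polybromo: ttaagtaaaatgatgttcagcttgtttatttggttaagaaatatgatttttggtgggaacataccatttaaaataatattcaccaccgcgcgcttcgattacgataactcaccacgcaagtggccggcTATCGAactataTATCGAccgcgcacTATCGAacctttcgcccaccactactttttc

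All 7 genes carried a promoter peak, against 42.6% of all protein-coding genes. The signals ran from 303.2 at mor to 769.7 at osa with a median of 596.6, where the 5889 bound genes had a median of 467.9 and a highest value of 3171. Thus 5 members lay above that median and Bap60 and mor below it. In order of signal they were osa (769.7), Snr1 (706.9), brm (698.2), polybromo (596.6), Bap170 (519.2), Bap60 (378.6) and mor (303.2). These are deposited values of 1 list with no error attached, so the spread over replicates can be read from ranks alone.

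**Figure D1:**
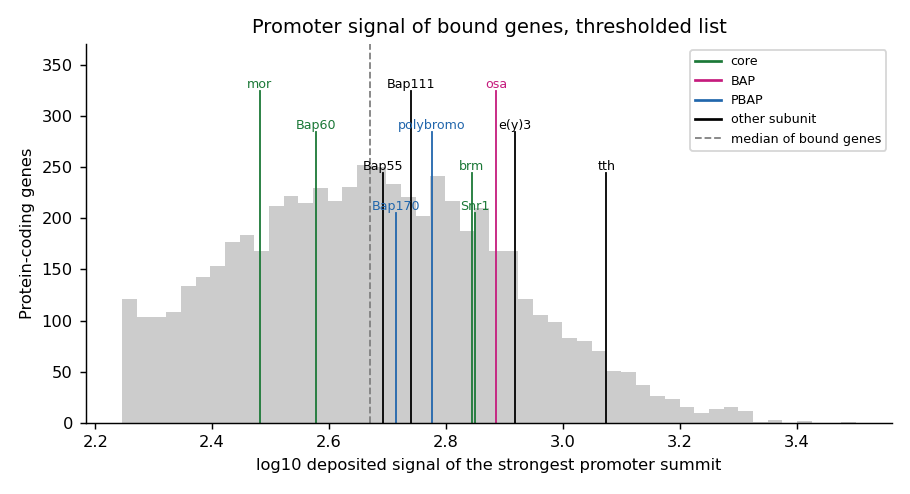
Histogram of the log10 deposited signal of the strongest promoter summit for the 5889 bound protein-coding genes (vertical axis, number of genes), with lines for the 7 members and for 4 further subunits, coloured by role. The members lie from 303.2 (mor) to 769.7 (osa), on both sides of the median of all bound genes at 467.9 (dashed).

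The core genes spanned nearly the whole range of the members. brm, the ATPase, had a signal above that of 76.4% of bound genes, and Snr1, the fly SNF5 protein, above that of 77.0%. mor, the SANT-domain scaffold that holds the core together, exceeded only 22.0%, and Bap60, a small core subunit, 35.6%. The BAP gene osa, which encodes a DNA-binding ARID protein, exceeded 82.2%. Of the PBAP genes, polybromo, which encodes a protein with many bromodomains that bind acetylated histones, exceeded 66.3% and Bap170, the other ARID protein, 57.3%. The core median (538.4, 4 genes) and the PBAP median (557.9, 2 genes) were close, but no core gene lay between the PBAP values. Snr1 and brm had more signal than both PBAP genes, brm by a summit nearer to its neighbour Arl1, and mor and Bap60 had less. The PBAP values thus lay inside the core range, while osa lay above it in this list. That order of osa and the core did not hold in the replicates. In replicate 1 brm was ahead of osa (ranks 470 and 839), by the summit nearer to Arl1. In replicate 3 Snr1 and mor were ahead of osa (737 and 160 against 1006), mor by a summit near its neighbour Hel89B. Of these 3 core genes, only Snr1 was ahead by a summit nearest to its own TSS.

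Between replicates, ranks moved least for osa, then for polybromo (a ratio of the larger to the smaller rank of 1.24) and Bap170 (1.42). Those of Snr1 and Bap60 moved more (1.65 and 1.67). The osa summit ranked 828 in the list of both replicates, 839 in replicate 1 (signal 536.6) and 1006 in replicate 3 (231.8). The polybromo summit ranked 1575, 1491 in replicate 1 (428.7) and 1846 in replicate 3 (176.5). The Bap170 summit ranked 2014, 2291 in replicate 1 (339.9) and 1612 in replicate 3 (190.2). The osa summit was thus ahead of both PBAP summits in each replicate, while polybromo and Bap170 changed places and did not differ beyond the spread between replicates. Snr1 ranked 1069, 1216 in replicate 1 (470.4) and 737 in replicate 3 (257.8), so it came behind osa in replicate 1 and ahead of it in replicate 3. Bap60 ranked 3210, 3741 in replicate 1 (234.4) and 2239 in replicate 3 (159.7), behind all of these in both replicates.

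The genes brm and mor changed most between replicates. The strongest summit within 500 bp of a brm TSS ranked 470 in replicate 1 (signal 659.7) and 3346 in replicate 3 (119.8), ahead of polybromo in the first and behind it in the second. The strongest within 500 bp of the mor TSS ranked 4872 in replicate 1 (182.3) and 160 in replicate 3 (396.6). In both cases the replicates took different summits for the gene, as described below with their neighbours. Following the thresholded summit itself to the nearest summit of each replicate, all 7 were found again within 100 bp in both. For mor the ranks were then 4872 and 2876, a ratio of 1.69, close to those of Snr1 and Bap60. For brm they were 470 and 6925, a ratio of 14.7, where the median ratio was 1.39 over the 5484 of 5889 bound genes whose summit was found in both replicates and 99.8% of those genes had a smaller ratio.

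**Figure D2:**
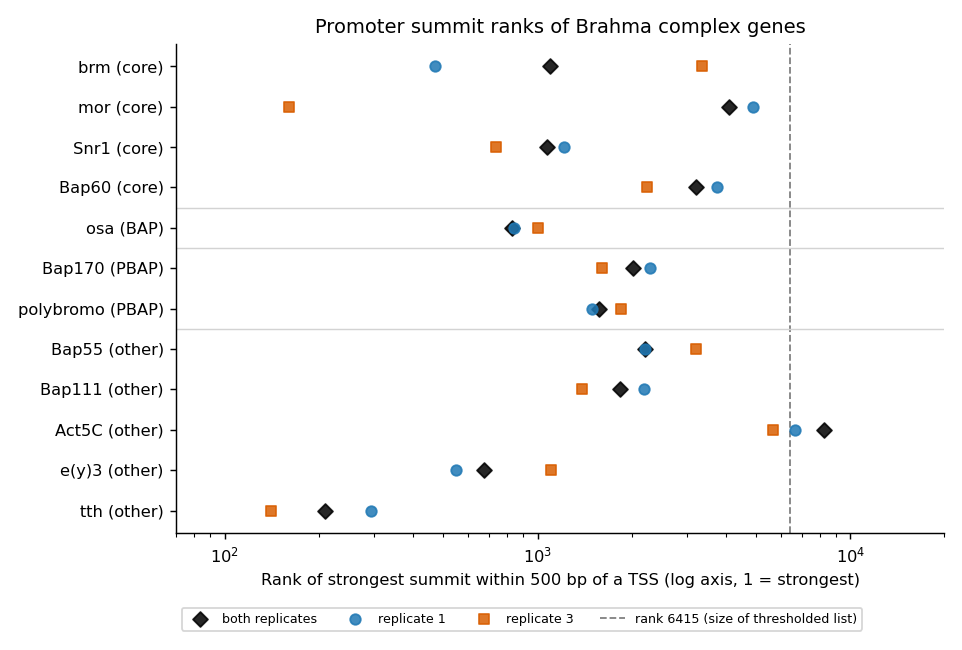
Rank of the strongest summit within 500 bp of a TSS of each gene (horizontal log axis, 1 is the strongest) in the list of both replicates, replicate 1 and replicate 3. The points of osa lie between 828 and 1006, while those of brm run from 470 to 3346 and those of mor from 160 to 4872, and all points of the 7 members are left of rank 6415 (dashed line). The lower rows are 5 further subunits.

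In 6 of the 7 genes the thresholded summit lay downstream of the TSS, and brm was the exception. The distances were 83 bp at polybromo, 104 bp at Bap60, 128 bp at osa, 140 bp at Snr1, 161 bp at Bap170 and 210 bp at mor. The median over the 7 was 128 bp downstream, where all bound genes had a median of 62 bp, quartiles of -66 and 127 bp, and a downstream summit in 65.6% of cases. The summits of polybromo, Bap60, osa and Bap170 fell in the annotated 5' UTR, and those of Snr1 and mor in coding sequence near its start. Replicate positions moved by at most 47 bp at these 6 genes, with polybromo moving most and osa by 11 bp and 3 bp.

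Most of the genes start back to back with a neighbour. A protein-coding TSS on the opposite strand lay within 500 bp upstream for 5 of the 7 (71.4%), against 49.9% of bound genes and 26.0% of all genes. A gene with such a neighbour had a promoter peak in 81.6% of cases and a gene without one in 28.8%, and a summit can count for both genes of a pair. The neighbours were Arl1 (266 bp from the brm TSS), Hel89B (385 bp from mor), mRpL44 (290 bp from Snr1), CG12096 (96 bp from Bap60) and Trap1 (250 bp from Bap170). For osa the nearest such TSS was 1104 bp away (Pxt) and for polybromo 2362 bp away (CG6980), so these promoters had no close divergent partner, and no other gene had a TSS within 500 bp of their promoter summits.

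At brm the peak could not be assigned to brm alone. The gene (FBgn0000212, chr3L:15970082-15982869, minus strand) has 6 transcripts from 2 TSSs, and its upstream neighbour Arl1 encodes a small GTPase of the Golgi. The thresholded region was 1263 bp wide, against a median of 524 bp, and held 2 summits. The stronger, with a signal of 698.2, was at 15983061 between the genes, 192 bp upstream of brm and 74 bp upstream of Arl1. The interval printed above was 63.4% A or T, where the stretches printed for mor, osa and polybromo had 68.7%, 65.3% and 59.5%. The weaker, with a signal of 502.3, was 132 bp inside Arl1. Both were nearer to Arl1, and when a summit counted only for its nearest TSS brm was the 1 member that lost its peak. Replicate 1 had the same pair at ranks 470 and 1634. Replicate 3 had its strongest summit inside Arl1, 142 bp downstream of that TSS (rank 3346). It had a second 99 bp inside brm, in the 5' UTR (rank 4413), and only a weak one between the genes (rank 6925). Within 500 bp of the brm start, a summit on the brm side was thus listed in replicate 3 alone.

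At mor the 2 divergent genes had separate summits. mor (FBgn0002783, chr3R:15968134-15972913, minus strand, 2 transcripts from 1 TSS) faces Hel89B, which encodes a SNF2-type ATPase of the Mot1 family that acts on the TATA-binding protein. The region was 1749 bp wide with 3 thresholded summits. The mor summit, 210 bp downstream of its TSS, had a signal of 303.2. Those of Hel89B, 138 and 347 bp downstream of its own TSS, had 1252 and 594.2. The strongest lay 523 bp from the mor TSS, just outside the 500 bp window, and ranked 169. In replicate 3 the strongest summit of the pair lay 375 bp from the mor TSS, inside the window and 10 bp from the Hel89B TSS, and gave mor its rank of 160 there. The summit on the mor side ranked 2876 in that replicate (signal 134.5 on its own scale), against 4095 in the list of both replicates.

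At Snr1, Bap60 and Bap170 the member's own side was the stronger. The Snr1 gene (FBgn0011715, chr3R:5470926-5472754, plus strand, 1 transcript) had its thresholded summit at 706.9, 430 bp from the TSS of mRpL44, which encodes a mitochondrial ribosomal protein. The summit inside mRpL44, 240 bp downstream of that TSS, had 130.1 and rank 7973 in the list of both replicates, below the lowest thresholded signal of 176.1. The Bap60 gene (FBgn0025463, chrX:13157445-13159508, minus strand, 1 transcript) had 378.6. A second summit, 2 bp from the CG12096 TSS, had 135.4 and rank 7775 and was also below the threshold. It was at rank 6636 in replicate 1 and was not listed within 500 bp of the Bap60 TSS in replicate 3.

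Bap170 (FBgn0042085, chromosome 2R, 6636512 to 6642358, plus strand, 1 transcript) shared a region of 1298 bp with Trap1, which encodes a mitochondrial chaperone of the Hsp90 family. Both genes had a thresholded summit of their own. That of Bap170 was 161 bp downstream of its TSS with a signal of 519.2, and that of Trap1 was 112 bp downstream of one of its TSSs with 419.2. The Trap1 summit lay at rank 2824 in the list of both replicates, 2872 in replicate 1 and 3507 in replicate 3, behind that of Bap170 in each.

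**Figure D3:**
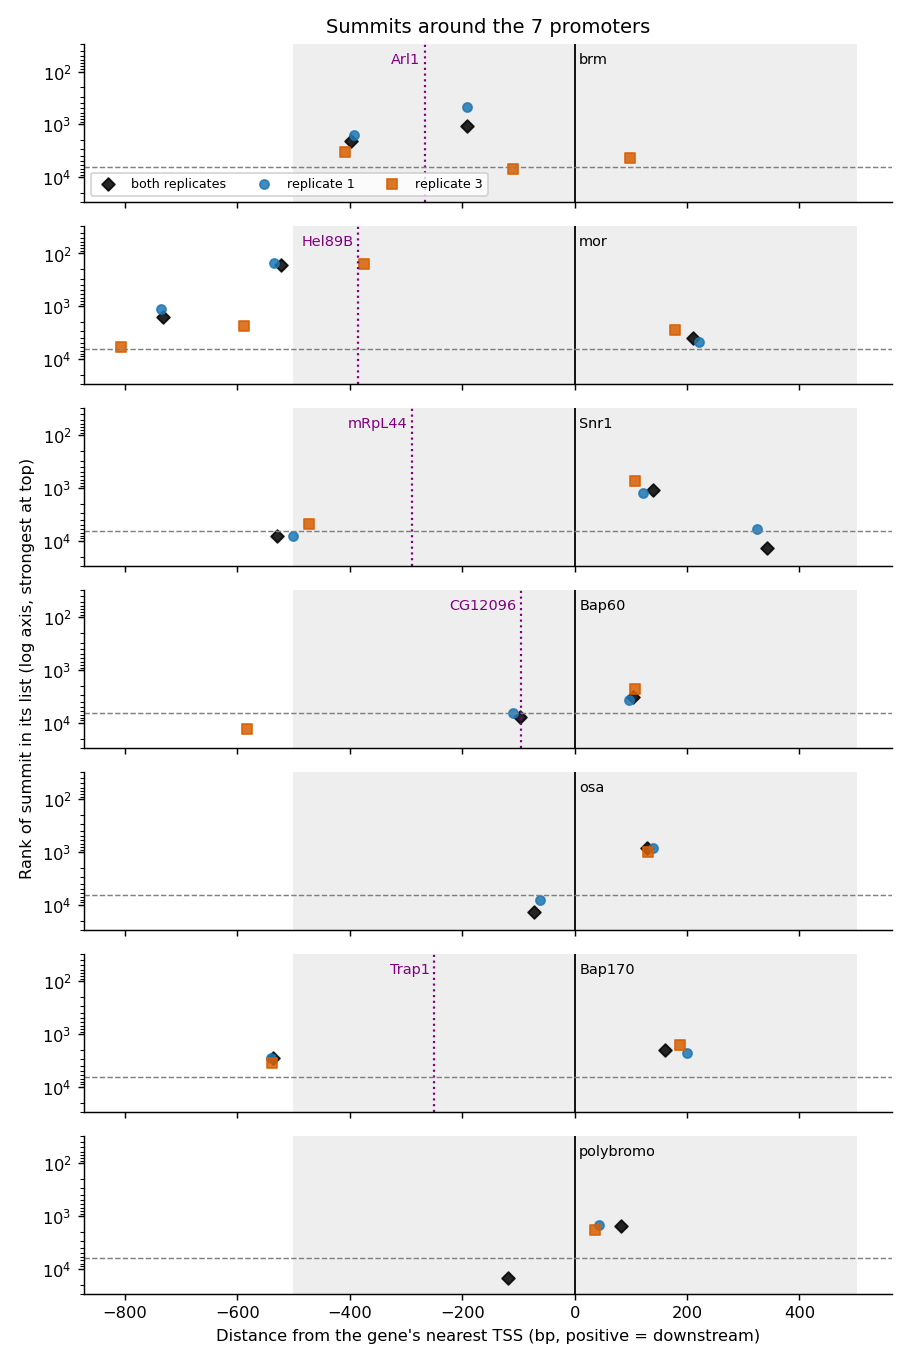
Summits around each of the 7 promoters by distance from the gene's nearest TSS (horizontal axis, bp, downstream positive) and rank in their list (vertical log axis, strongest at the top), with dotted lines at the TSS of a divergent neighbour, grey shading for the 500 bp window and a dashed line at rank 6415. At 6 genes each list has a summit 36 to 222 bp downstream of the gene's TSS, whereas at brm only replicate 3 has a summit within 500 bp downstream of the start, and the strong summits of mor at the left belong to Hel89B.

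The osa gene held thresholded summits beyond its promoter. It is the longest of the 7 (FBgn0261885, chr3R:17687818-17718350, minus strand), with 6 transcripts from 1 TSS. Of 5 thresholded summits in or within 1000 bp of the gene, the promoter summit had 769.7. A summit 13950 bp downstream, in an osa intron and in an exon of the non-coding gene lncRNA:CR46035, had 748.1, nearly the same. It ranked 910, 744 and 1620 in the list of both replicates, replicate 1 and replicate 3, and lay 705 bp from the nearest annotated TSS. A further intronic summit, 17721 bp downstream and 112 bp from the start of lncRNA:CR46036, had 322.1. It ranked 3889 with both replicates and 3059 in replicate 1, while in replicate 3 the summits closest by ranked 8375 and 10164, below the 6415 strongest. The remaining summits were 1057 bp downstream in an osa intron (233.9) and beyond the 3' end, 34 bp inside CG31249 (354.4). No other member had a thresholded summit in its own gene more than 500 bp from its TSS. The other summit near polybromo (FBgn0039227, chr3R:24799967-24805259, minus strand, 1 transcript) had a signal of 177.9, just above the lowest of the list. It lay past the 3' end, 7 bp from the TSS of Ude, which encodes a uracil-DNA nuclease.

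**Figure D4:**
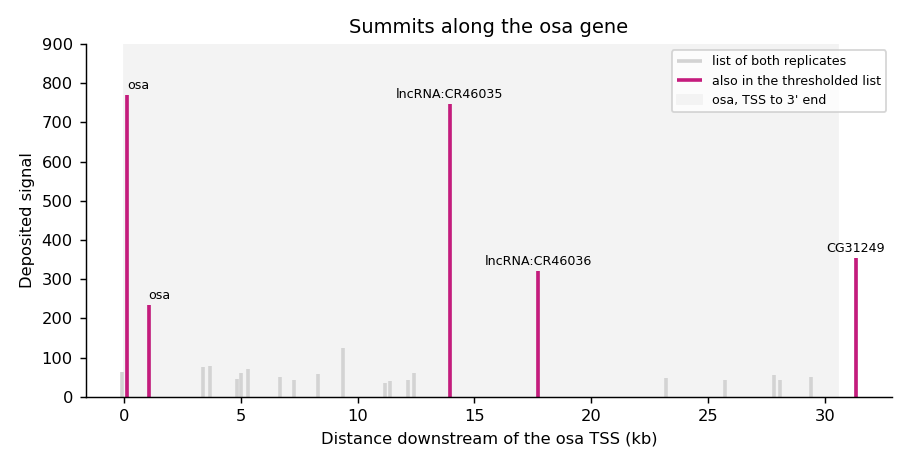
Deposited signal of every summit in and within 1000 bp of osa in the list of both replicates (light grey) by distance downstream of the osa TSS (kb), with the 5 thresholded summits in colour and the gene of the nearest TSS written above. The summit at 13950 bp (748.1) is nearly as high as the promoter summit (769.7), and the summits below the threshold reach 125.6.

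The full DRE stood close to the TSS where it was found. From 250 bp upstream of the TSS to 50 bp downstream, TATCGATA (its own reverse complement) was present at 3 of 7 members, mor, osa and Bap170, against 18.8% of bound genes, 2.30% of unbound genes and 9.33% of all protein-coding genes. It began 29 bp upstream of the TSS at mor, 10 bp at Bap170 and 8 bp at osa, where it ends at the base before the TSS as printed above. In the 60 bp before the TSS it was found at 9.83% of bound and 0.743% of unbound genes. TATCGA, which lies within each DRE, was searched on both strands after the sequences had been read. In those 60 bp it was present at mor, osa, Bap170 and polybromo, against 26.1% of bound and 4.93% of unbound genes, and polybromo had 3 copies, beginning 57, 45 and 31 bp upstream. Neither brm nor Snr1 had TATCGA anywhere in the wider window, and Bap60 had it only 249 and 217 bp upstream, on the far side of the CG12096 start.

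Other elements were found in fewer members or at shares near those of all genes. The core of Motif 1 (GGTCACAC on either strand), an element bound by M1BP, was at none of the 7, against 17.5% of bound genes. The letters of the initiator (TCAGT) were found at mor only, against 43.6% of bound and 58.0% of unbound genes. The matches at mor began 211, 194 and 48 bp upstream, and none was at the TSS itself. TATAAA was at brm, mor, Snr1 and osa, with matches 90 to 242 bp upstream, away from the usual place of a TATA box, and at 45.8% of bound genes. CAGCTG, the E-box core, and GAGAG, the GAGA element, were at Bap170 alone, against 25.1% and 23.6% of bound genes. The window was placed on the TSS nearest to the summit in bound genes and on the canonical TSS in the others, and a match describes letters and does not mark a bound site.

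The other subunits listed for the complex had promoter peaks in 4 of 5 cases, with 80.0% set against the same 42.6% of all genes. tth, related to the d4 family that includes a mammalian subunit, had 1188 at rank 209, above 95.6% of bound genes and higher than each of the 7. e(y)3, the SAYP protein that joins PBAP to TFIID, had 827.8, also higher than each of the 7. Bap111, an HMG-box subunit, had 548.9. Bap55, an actin-related protein, had 492.7, with the summit 2 bp from the TSS of Lhr and 71 bp upstream of Bap55. Act5C, a cytoplasmic actin that also serves as a subunit, had none. Its strongest promoter summit with both replicates had 124.1 at rank 8253, 44 bp downstream of a TSS. In replicate 3 the strongest lay 18 bp downstream of a TSS at rank 5665, and in replicate 1 a different summit, 411 bp upstream of another Act5C TSS, was the strongest at rank 6669.

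Genes of other remodelling complexes were bound about as often. Of 37 such genes 35 had a promoter peak (94.6%), where 42.6% of all protein-coding genes had one. Their median signal was 506.9, against 596.6 for the 7 members and 467.9 for all bound genes. The ISWI group had 7 of 8, led by E(bx) (1575), the large subunit of NURF, and Nurf-38 (830.7). The Mi-2 group had 6 of 7, led by MEP-1 (1001) and MTA1-like (731.0). The INO80 and Domino/Tip60 group had 15 of 15 with a lower median of 336.3, led by dom (835.1), the Swr1-type ATPase, and Tip60 (765.0), an acetyltransferase. Further ATPases had 7 of 7, with a median of 751.9, led by Hel89B (1252) and kis (1091). Only tou and Chd3 had none. Whether the members differ from these genes was not tested.

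The count of members held under most other rules. It was 7 of 7 with a window of 250 bp (38.6% of all genes), with a window of 1000 bp (45.3%), with the canonical TSS alone (40.0%), and in the 6415 highest summits of replicate 3 (43.3%) or of replicate 1 (41.7%). Counting a summit for the gene of its nearest TSS alone gave 6 of 7, without brm (35.8%). The 3207 highest thresholded summits gave 5 of 7, without mor and Bap60 (27.4%), and Bap60 at rank 3210 missed this limit narrowly.

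For each member, the protein-coding gene most alike in its ranks was the one at the smallest distance in log10 rank over the 2 replicates, among 5868 bound genes listed in both and leaving out genes that share its summit. These were Pdrg1 for brm, CG32452 for mor, Manf for Snr1, Taf7 for Bap60, Rab5 for osa, bc10 for Bap170 and Pomp for polybromo. The closest match was Taf7, at ranks 3764 and 2218 against 3741 and 2239 for Bap60. The loosest was CG32452 at 3848 and 119 against 4872 and 160 for mor. With 2 values per gene the likeness says little beyond a similar rank.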

How the data were processed

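Peak lists of 2 MESR4-GFP embryo samples (1 group) were analysed. Per the labels, chromatin was sonicated to 200 to 800 bp. Per the deposited listings, the authors called peaks together with background regions on dm6 alignments of each replicate and of both, against a shared control, and derived a thresholded list by the irreproducible discovery rate. The sources used here do not name the aligner, caller, threshold or depth. The sampling error of the signals is therefore unknown. The deposited signal is the authors' enrichment value per peak, and the deposited −log10 q value was not used because it repeats its maximum at strong peaks.

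Summits were placed from the deposited offsets and matched to TSSs of all Ensembl release 115 genes, except transposable elements, on 6 arms. A gene's signal was that of its strongest thresholded summit within 500 bp. The 111 genes of the tandem histone cluster were left out. All 6415 thresholded summits were the highest of the list of both replicates, and all peak ends lay within the release 6 arms. Computation used Python 3.11.15 with pandas 2.3.3 and was checked on planted summits.

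The members, gene lists, motifs and the rule for named genes were chosen with earlier results of these data known. The rule takes all members, genes sharing their summits and the 5 other subunits listed, a list that need not be complete. It also takes the strongest 2 genes of each other complex group, and the gene most alike in replicate ranks. The genes tou and Chd3, and neighbours beyond 500 bp, were named after their values were seen. The TATCGA search and the share within 60 bp were also added after the data were seen. Alternatives were windows of 250 and 1000 bp, a stricter list, each replicate alone, nearest and canonical TSSs, and another matching rule. No group comparison was possible.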

Additional observations from a re-analysis of the deposited data

How the results depend on the processing

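The 4 counts of genes with a promoter peak (members, further subunits, other remodelling genes and all protein-coding genes) stayed within 1.5 times their main value under every window, list and TSS rule tried, with 2 exceptions under the stricter list. Among its 3207 summits, 3786 of 13834 protein-coding genes had a promoter peak against 5889, and 21 of 37 other remodelling genes against 35. The median signal of the members was 596.6 with windows of 250 and 500 bp and 698.2 with 1000 bp, where the mor window takes in the Hel89B summit and mor moves from rank 4095 to 169. Single ranks moved by more than the SD between replicates without replicate 1 for brm (3346), mor (160), osa (1006) and polybromo (1846). That SD comes from the same 2 replicate ranks, so it is no independent measure of stability. It was 118 ranks for osa and 2034 for brm. An alternative chosen after seeing the data, requiring the nearest protein-coding TSS and a summit within 100 bp in both replicates, left 6 of 7 members, without brm. Matching by shared region in place of a 100 bp distance left all 7 members found in each replicate. The thresholded list was itself chosen by comparing these replicates, so finding its summits again was largely built in. By the 100 bp distance, 5484 of all 5889 bound genes were found in both replicates, so the count of 7 members does not set them apart. No share over all bound genes was set beside the count by shared region. No paired analysis was possible because there was 1 group. Read depth was not given, so precision of single signals is unknown.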

Other observations

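Summits shared with a neighbour also occurred among the other remodelling genes. Counting each summit for its nearest TSS alone left 27 of 37 of them with a promoter peak, against 35 when every TSS within 500 bp counted. Over all protein-coding genes the same rule left 4952 of 13834, against 5889. Whether the remodelling genes differ from the rest in this was not tested. At Mi-2, the ATPase of the nucleosome remodelling and deacetylase complex, the strongest summit (659.8) lay 64 bp upstream of the Mi-2 TSS and 21 bp from that of Prp3, a splicing factor gene. At rept, a helicase subunit of several complexes, the stronger of 2 summits (288.2) lay 351 bp upstream of the rept TSS. It was 72 bp from the TSS of mRpL21, a mitochondrial ribosomal protein gene. Unlike Mi-2 and Etl1, rept kept a promoter peak when each summit counted for its nearest TSS alone. At Etl1, the summit (769.8) lay 446 bp upstream of the Etl1 TSS and 143 bp from that of Srp54, a gene of the signal recognition particle. These genes were named after their values were seen.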
